A study of Homo sapiens with 6 samples.

Results

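The clustered histone genes were measured in ES-2, an established cell line from a human ovarian cancer, on 6 Affymetrix PrimeView arrays, 1-colour oligonucleotide arrays that read each transcript with 1 or more probe sets. The members were all genes with a probe set of their own whose symbol begins with H1-, H2AC, H2BC, H3C or H4C, or with the older HIST1H to HIST4H. This took 67 of the 18132 genes on the arrays: 11 of the H1 class, 15 H2A, 19 H2B, 10 H3 and 12 H4. Of these, 64 are protein-coding, H1-9P and H2BC20P are pseudogenes, and H1-10-AS1 is an antisense RNA that the rule took by its letters. By their older symbols, 54 lie in the HIST1 cluster, 5 in HIST2, 2 in HIST3 and 1 in HIST4, and 5 (H1-7, H1-8, H1-10, H1-9P and H1-10-AS1) carry no cluster symbol. The rule itself uses names and no measured value, but it was proposed with earlier results of these data known.

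The study compared 3 arrays labelled as ES-2 cells that overexpress CADM1, a cell adhesion molecule studied as a tumour suppressor, with 3 arrays of ES-2 cells described as mock controls, all from cells in logarithmic growth. Neither the vector nor whether a single clone was used is given in the sources used here. For 2 arrays labelled overexpression the source name has CADM2 or CADM3 where the title and genotype field have CADM1. Whether the arrays of a group stand for separate cultures is not stated, so the p-values cover just the array-to-array spread, which could be technical. No batch or date is named. The brightest CADM1 probe set goes against the labels, since it read 8.14 ± 0.040 (SD, n = 3) in the arrays labelled overexpression and 10.26 ± 0.030 (SD, n = 3) in the arrays labelled control, a log2 difference of -2.12. Its other 5 probe sets, all dimmer, differed by -0.06 to 0.17 and were not called; the next in signal lay with the labels without overlap, at 7.72, 7.61 and 7.58 against 7.49, 7.44 and 7.46, and the mean over all 6 differed by -0.32. Each direction below is that of the labels. Array medians ran from 6.18 to 6.20 and correlations between arrays from 0.998 to 0.999. Of the epithelial markers KRT7, KRT8 and KRT18 had log2 signals of 12.47 to 13.30 in both groups, whereas EPCAM read 2.90 and 3.01 and the ovarian marker PAX8 read 4.74 and 4.57, below the median of 6.19 over all probe sets.

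Histones package DNA into nucleosomes. H2A with H2B, and H3 with H4, form the core around which DNA winds, and H1 binds the linker where DNA enters and leaves. The clustered genes supply the bulk of new histone during DNA replication, most have no introns, and their mRNAs end in a conserved stem-loop instead of a poly(A) tail, bound by SLBP. Several members can also make polyadenylated transcripts. The labels cite the standard Affymetrix labelling protocol, in which reverse transcription starts from oligo(dT) at poly(A) tails, so signal from these probe sets need not follow the stem-loop mRNA.

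Among the clustered histone genes H1-2, which encodes a linker histone, and H2BC12, which encodes an H2B, rose in the arrays labelled overexpression. The differences were 0.17 and 0.09 on the log2 scale, and no member was called lower. A gene was called where limma's p, adjusted by the Benjamini-Hochberg method over all 18132 genes, was under 0.05. These 2 of 67 members (2.99%) stand beside 174 genes, or 0.960%, called higher over all genes. The 0 members called lower stand beside 218 genes, or 1.20%. At an unadjusted limma p under 0.05, 8 members were higher (11.9%, against 6.95% of all genes) and 3 lower (4.48%, against 6.97%). The groups did not overlap, meaning that all 3 arrays of one group lay above all 3 of the other, in 11 members that were higher (16.4%, against 9.68% of all genes) and 5 that were lower (7.46%, against 8.61% of all genes). The median log2 difference was 0.05 over the members and 0.01 over all genes, and 42 members were positive and 25 negative (62.7% positive, against 54.6% of all genes). In RNA from whole cultures, a change in the share of cells of a type or cell cycle phase and a change in RNA per cell cannot be told apart.

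The promoters below are shown because they belong to the 2 called genes and to 3 further members, H2BC5, H2BC21 and H2AC20, whose adjusted p lay nearest above the threshold together with that of H3C10. H2BC21 was chosen for this after its values were seen. Each stretch is the 150 bases before the gene's start in RefSeq's GRCh38.p14, 5′ to 3′ on the strand of the gene, with capitals where either strand holds the TATA motif TATANA, the CCAAT box, the octamer ATTTGCAT or AAACACA, the core of the H1 box. Where capitals run past the length of a motif, matches overlap, as those of TATANA do in H1-2, H2BC12 and H2BC5.
H1-2 (chr6:26056471-26056620, minus strand): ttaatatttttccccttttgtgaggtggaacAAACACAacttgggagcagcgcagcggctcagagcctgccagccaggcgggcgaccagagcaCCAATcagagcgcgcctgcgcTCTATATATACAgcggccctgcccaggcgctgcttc
H2BC12 (chr6:27146859-27147008, minus strand): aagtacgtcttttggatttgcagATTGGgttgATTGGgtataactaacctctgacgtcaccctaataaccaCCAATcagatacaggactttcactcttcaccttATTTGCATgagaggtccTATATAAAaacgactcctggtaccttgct
H2BC5 (chr6:26157971-26158120, plus strand): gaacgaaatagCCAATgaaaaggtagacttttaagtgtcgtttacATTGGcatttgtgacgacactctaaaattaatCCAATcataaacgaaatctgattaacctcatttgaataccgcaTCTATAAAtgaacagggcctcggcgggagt
H2BC21 (chr1:149886683-149886832, minus strand): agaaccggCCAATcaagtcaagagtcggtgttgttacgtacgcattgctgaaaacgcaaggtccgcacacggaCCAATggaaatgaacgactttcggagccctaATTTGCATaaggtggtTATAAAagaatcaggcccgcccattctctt
H2AC20 (chr1:149886768-149886917, plus strand): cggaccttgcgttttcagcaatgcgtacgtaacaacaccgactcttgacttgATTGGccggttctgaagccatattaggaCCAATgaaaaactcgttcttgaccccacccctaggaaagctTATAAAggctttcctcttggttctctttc

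H1-2 carries the H1 box core, a CCAAT match and 4 overlapping TATANA matches, and H2BC12 carries the octamer 46 to 39 bases before its start, the position it also has in H2BC21. H2BC21 and H2AC20 lie head to head, and their 2 stretches share 65 bases on opposite strands. A promoter of 300 bases, from 250 before to 50 after the start, was found for 59 of the 67 members. Of these, 81.4% held TATANA, against 19.8% of all 27305 RefSeq promoters, and 86.4% held CCAAT, against 35.7%. ATTTGCAT was found in 78.6% of the H2A promoters, 77.8% of the H2B promoters, 12.5% of the H3 promoters and in none of the 9 H1 or 10 H4 promoters, against 1.82% of all promoters. AAACACA was found in 77.8% of the H1 promoters and 5.79% of all promoters. CCAAT was in every H2A, H2B and H3 promoter of the table and in 30% of those of H4. H2BC5 has no exact ATTTGCAT in its window. A match describes the letters and was not tested as a binding site.

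The linker histone H1-2 read 10.44, 10.42 and 10.47 on the arrays labelled overexpression and 10.26, 10.28 and 10.28 on those labelled control. All 3 arrays of the first group lay above all 3 of the other, and both groups spanned less than the gap between them. The log2 difference was 0.17 ± 0.023 (SE; 95% confidence interval 0.12 to 0.22), or 1.12-fold (limma, adjusted p = 0.00140). A single probe set read H1-2. It is of the _x_at type, which can match related transcripts, and the part of other H1 genes in its signal was not tested. Its call was lost without a mean-variance trend in the test (adjusted p = 0.170).

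The other H1 members were not called. H1-10, a linker histone outside the clusters, read 10.43, 10.46 and 10.50 against 10.52, 10.54 and 10.50 on the control arrays. The groups met at the third array of each, and the difference was -0.06 ± 0.025 (SE; unadjusted p = 0.0363, adjusted p = 0.309). Both of its probe sets were negative. H1-7, a linker histone of the testis, had the highest difference of the class at 0.18 ± 0.11 (SE), with groups that overlapped. H1-1 had the lowest, at -0.06 ± 0.086 (SE). H1-3 was separated without a call, at 3.79, 3.77 and 3.74 against 3.52, 3.65 and 3.70, and its signals were low. In all, 9 of the 11 H1 members were positive, beside 54.6% of all genes and 62.0% of all dim genes. The positive members include the antisense RNA H1-10-AS1 at 0.08, which is also the class median, and the pseudogene H1-9P at 0.11. H1-2 and H1-10 alone had signals of at least the probe-set median.

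**Figure D1:**
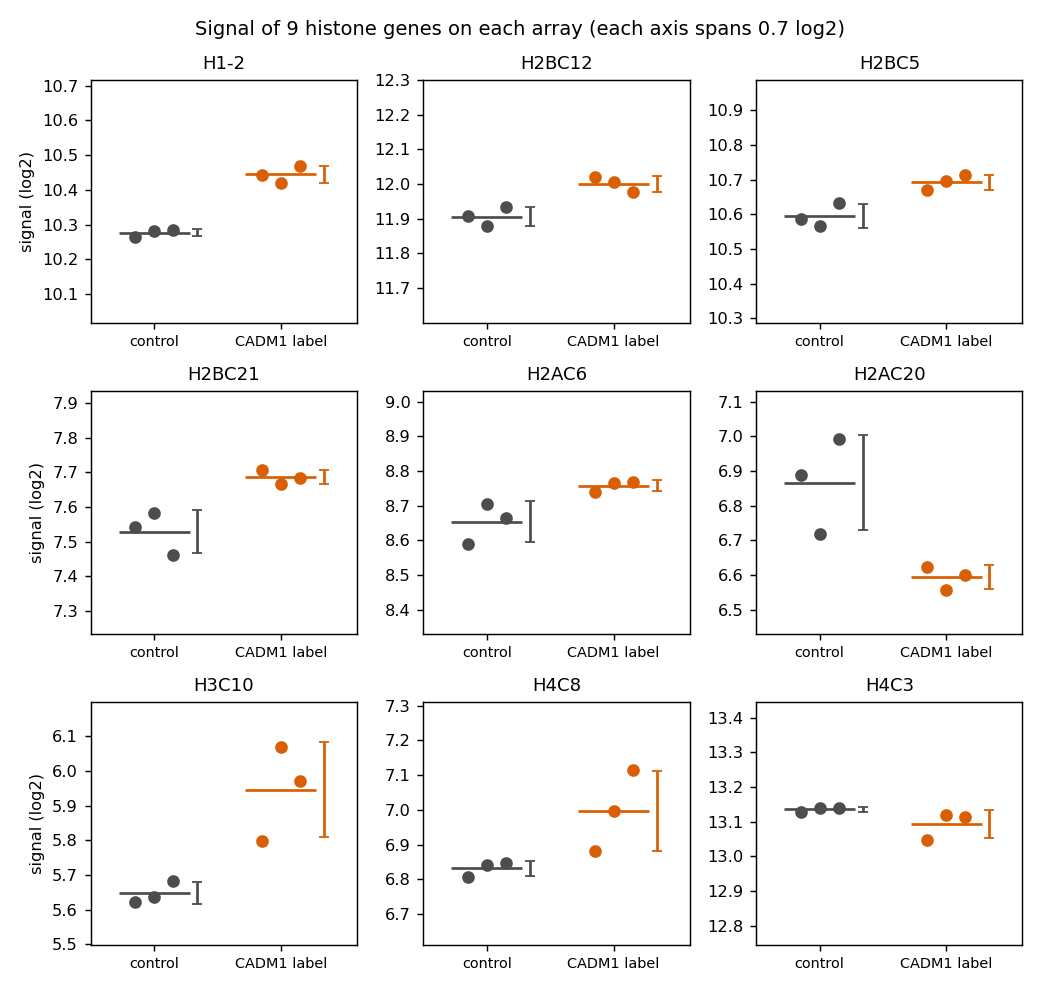
Log2 signal of 9 clustered histone genes on each of the 6 arrays, in grey for the arrays labelled control and orange for those labelled overexpression; points are arrays, lines group means and bars 1 SD (n = 3), and each axis spans the same range. The 9 genes are all from the members whose groups do not overlap. Those were 11 of 67 members higher (16.4%, against 9.68% of all genes) and 5 lower (7.46%, against 8.61%). H1-2 and H2BC12 were called, and H2AC20 and H4C3 are lower in the arrays labelled overexpression.

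H2B, the largest class, had the most members at an unadjusted limma p under 0.05, with 4 of 19 higher and 0 lower. The higher share was 21.1%, against 6.95% of all genes, and the lower share 0%, against 6.97%. H2BC12 read 12.02, 12.01 and 11.98 on the arrays labelled overexpression and 11.91, 11.88 and 11.93 on those labelled control. The groups did not overlap, with a gap between the nearest arrays of similar size to the spread within a group. The difference was 0.09 ± 0.021 (SE; 95% confidence interval 0.05 to 0.14), or 1.07-fold (limma, adjusted p = 0.0302). Its other, dimmer probe set gave 0.09 as well, but was not called. The call of H2BC12 was lost in 8 of the 16 alternative settings, with adjusted p from 0.0530 with median centring to 0.370 without a mean-variance trend. Single arrays ended it too: the adjusted p was 0.174 and 0.0935 with the first or the second overexpression array left out, and 0.122 and 0.134 with the first or the second control array left out.

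H2BC5, another H2B of the HIST1 cluster, read 10.67, 10.70 and 10.71 against 10.59, 10.57 and 10.63 on the control arrays. The groups did not overlap, and the difference of 0.10 ± 0.024 (SE) just missed the threshold (limma, adjusted p = 0.0516). All 3 of its probe sets were positive, between 0.08 and 0.10, each without overlap. H2BC5 was called in 4 of the alternatives: with quantile normalization (adjusted p = 0.0444), without genes under the median level (0.0315), with the brightest probe set of any type (0.0486) and without the third control array (0.0329).

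H2BC21, an H2B of the HIST2 cluster named after its values were seen, read 7.71, 7.67 and 7.68 against 7.54, 7.58 and 7.46. The lowest array labelled overexpression lay above the highest control array, and the difference was 0.16 ± 0.044 (SE; adjusted p = 0.0899). Its other 2 probe sets averaged a dim 3.58, held the same values as each other on every array and gave -0.03. H2BC4 read 6.34, 6.16 and 6.37 against 6.17, 6.15 and 6.05. Its groups overlapped, since the second array labelled overexpression lay below the first control array, and the difference was 0.16 ± 0.071 (SE; adjusted p = 0.307). H2BC9 had the lowest difference of the class, -0.14 ± 0.11 (SE), with overlapping groups. Of the 7 H2B members at or above the median signal 6 were positive (85.7%, against 48.2% of all genes at that level). The other, H2BC8, gave 0.00. Among all 19, 12 were positive (63.2%, against 54.6% of all genes) and the median was 0.06.

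**Figure D2:**
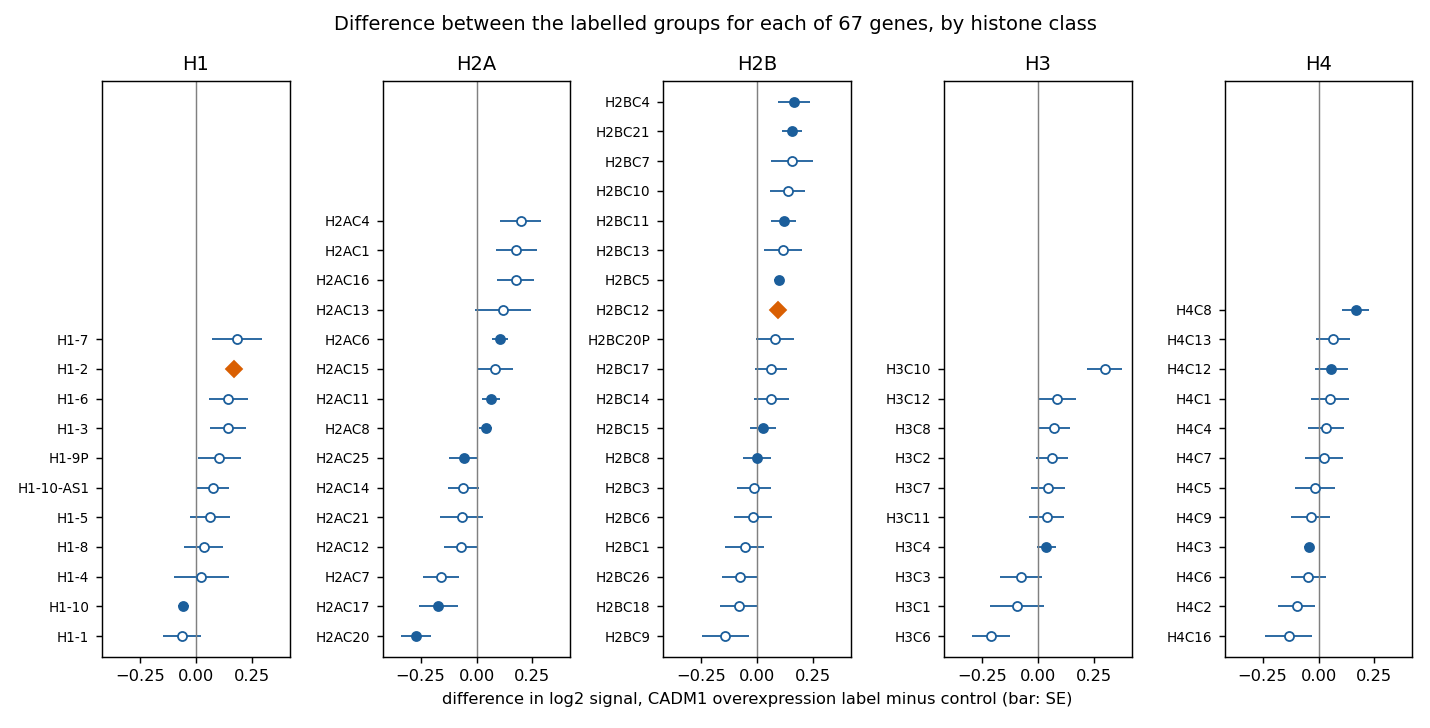
Difference in log2 signal, arrays labelled overexpression minus arrays labelled control, for each of the 67 members by class, with bars of 1 SE. Orange diamonds are the 2 called members, filled points have a mean signal of at least the probe-set median of 6.19 and open points a lower one; H2AC20 lies lowest at -0.27 and H3C10 highest at 0.30.

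The H2A members were split, with 8 positive and 7 negative, and none was called. H2AC20, of the HIST2 cluster, had the lowest difference of all members. It read 6.62, 6.56 and 6.60 on the arrays labelled overexpression and 6.89, 6.72 and 6.99 on those labelled control. The groups did not overlap, although the second control array lay nearer to the other group than to its own highest array. The difference was -0.27 ± 0.067 (SE; 95% confidence interval -0.41 to -0.13) and just missed the threshold (limma, adjusted p = 0.0513). It was called without genes under the median level (adjusted p = 0.0299) and, at -0.35, without the second control array (adjusted p = 0.0166). Its other probe set, at a dim 3.45, gave -0.11.

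H2AC6, from the HIST1 cluster, pointed the other way, at 8.74, 8.77 and 8.77 against 8.59, 8.71 and 8.67. Its groups did not overlap, and the difference was 0.10 ± 0.035 (SE; adjusted p = 0.165). H2AC8 read 8.75, 8.72 and 8.74 against 8.70, 8.72 and 8.68, with a difference of 0.04 ± 0.031 (SE) and groups that overlapped. H2AC4 had the highest difference, 0.20 ± 0.092 (SE; adjusted p = 0.361), from signals of 3.94, 3.97 and 3.86 against 3.53, 3.84 and 3.81. These groups were separated by less than the spread of the control arrays.

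Of the 10 H3 members none was called, with 7 positive and 3 negative. H3C10 had the highest difference of all 67 members. It read 5.80, 6.07 and 5.97 against 5.62, 5.64 and 5.68, so that every array labelled overexpression lay above the control arrays, with a wider spread in the first group. The difference was 0.30 ± 0.078 (SE; 95% confidence interval 0.13 to 0.46; limma, adjusted p = 0.0638). These values came from a probe set of the _s_at type, which can match related transcripts. The other H3C10 probe set, not of that type, gave 0.04 with overlapping groups, so the 2 did not show the same size. H3C6 had the lowest difference, -0.21 ± 0.085 (SE; adjusted p = 0.274), at 3.78, 3.80 and 3.99 against 4.09, 4.11 and 3.999. The third array of each group nearly met. H3C4, the 1 H3 member at or above the median signal, gave 0.04 ± 0.043 (SE), and this turned to -0.01 without the third overexpression array.

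The 12 H4 members were evenly divided, 6 positive and 6 negative, with a median of 0.00 and none called. H4C8 read 6.88, 6.995 and 7.11 against 6.81, 6.84 and 6.85. The control arrays lay close together and below all 3 others, and the difference was 0.17 ± 0.060 (SE; adjusted p = 0.209). H4C3 had high signals on its representative probe set, at 13.05, 13.12 and 13.11 against 13.13, 13.14 and 13.14. Its groups were separated by a difference of -0.04 ± 0.020 (SE; adjusted p = 0.376), with the first array labelled overexpression apart from the rest. The second H4C3 probe set, of the _x_at type and brighter at a mean of 13.27, gave -0.03 with overlap. H4C16, the single member of the HIST4 cluster, had the lowest difference of the class, -0.13 ± 0.11 (SE).

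The precision differed with the signal. The 19 members whose signal reached the probe-set median of 6.19 had a median SE of 0.044, and the 48 below it a median SE of 0.085. Among the 19, 13 were positive (68.4%, against 48.2% of all genes at that level), and 7 were higher at an unadjusted p under 0.05 (36.8%, against 9.14%). These were H1-2, H2BC12, H2BC5, H2BC21, H2AC6, H4C8 and H2BC4. A further 2 were lower, H2AC20 and H1-10 (10.5%, against 11.6%). Among the 48 dim members 60.4% were positive, against 62.0% of all dim genes, with H3C10 higher and H3C6 lower at an unadjusted p under 0.05. These shares describe the members, which were chosen with earlier results known, and were not tested.

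**Figure D3:**
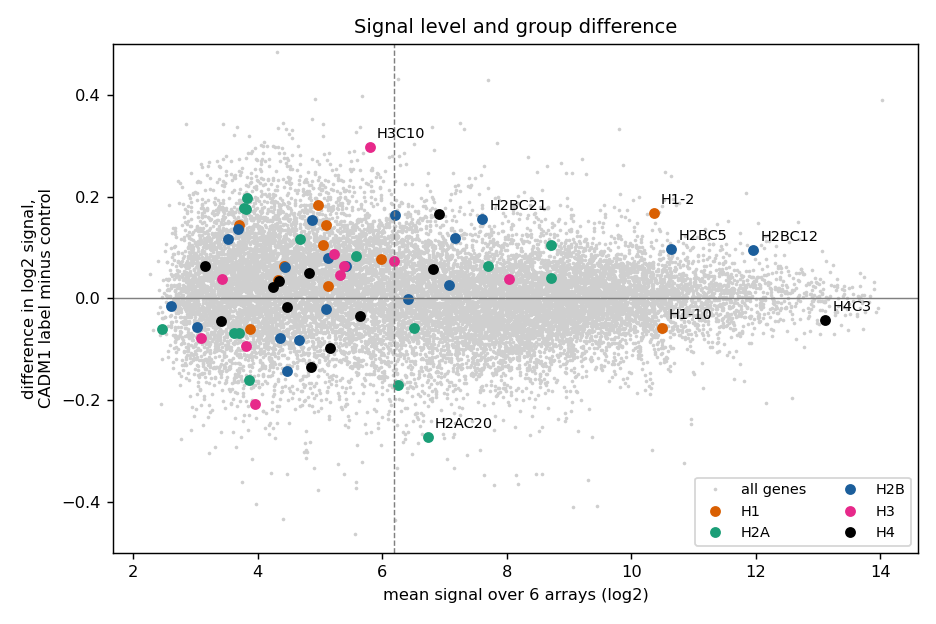
Mean log2 signal over the 6 arrays (x axis) against the difference in log2 signal between the labelled groups (y axis) for all genes in grey and the members coloured by class; 7 genes lie outside the y axis, and the dashed line marks the median of all probe sets, 6.19. To the right of that line most members are above 0, led by H1-2 at 0.17, and H2AC20 at -0.27 lies apart from them.

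The 4 H2B genes with an unadjusted p under 0.05 were picked by these same values, and all have a long gene model. In RefSeq's GRCh38.p14, where all 67 members have a length, 55 of the 62 genes of the clusters span 386 to 797 bases from first to last base, and 7 span more than 1000. The 7 are H2BC21 at 2224 bases, H3C4 at 2510, H3C6 at 3296, H2BC12 at 8566, H2BC4 at 10757, H2BC5 at 13229 and H2BC18 at 29682. Among them 5 were positive and the median difference was 0.09, against 33 of 55 positive and a median of 0.04 for the shorter genes. Of the 5 long H2B genes 4 were higher at an unadjusted p under 0.05, and of the 14 short ones 0. The fifth, H2BC18, gave -0.08 at a dim 4.66, and 2 of its 4 probe sets were positive. Over all genes 6.95% were higher at that p, and 9.14% of those at or above the median signal. The short H2BC11, at 480 bases, gave 0.12 with overlapping groups (limma, unadjusted p = 0.0515), more than the long H2BC12 and H2BC5. The median signal was 7.61 in the long H2B genes and 4.67 in the short ones. Among the long genes H3C6 was lower at an unadjusted p under 0.05, at -0.21 without overlap (limma, adjusted p = 0.274). The other 4 members with an unadjusted p under 0.05 in the higher direction had short models, H1-2 at 731 bases, H2AC6 at 519, H3C10 at 486 and H4C8 at 409. The limit of 1000 bases was set after the values were seen, so these counts are a description. The long genes also had higher signals, with a median of 7.61 against 4.86, and the part of signal in the counts was not tested. H2BC4 and H3C6 among them were read by _s_at sets, which can match related transcripts.

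**Figure D4:**
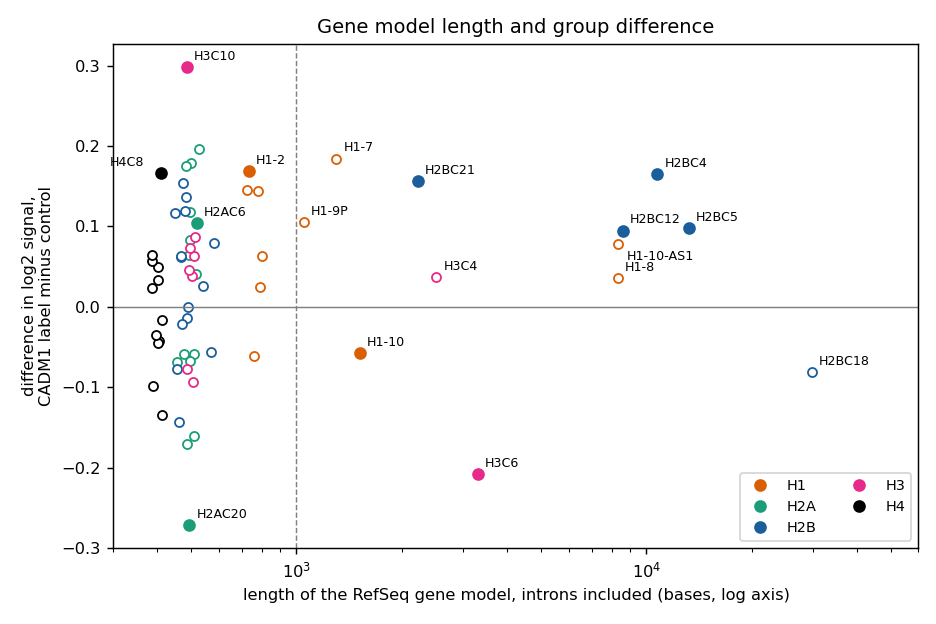
Length of each member's RefSeq gene model in bases (x axis, log scale) against the difference in log2 signal between the labelled groups (y axis), coloured by class; filled points have an unadjusted limma p under 0.05, open points a higher p, and the dashed line marks 1000 bases. The filled H2B points, H2BC21, H2BC12, H2BC4 and H2BC5, all lie to the right of the line and above 0, and H2BC18 lies there below 0.

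H2A and H2B genes are often arranged head to head, with a promoter region between them. Among the members 11 such pairs had RefSeq starts 194 to 248 bases apart. Both genes were positive in 4 pairs, both negative in 1, and the signs were opposite in 6. No gene of the 11 pairs was called, so these are signs of uncalled differences. In the 4 pairs where both genes had signals at or above the median, 2 had the same sign. H2AC6 gave 0.10 and its neighbour H2BC4 0.16, and H2AC11 gave 0.06 and H2BC11 0.12. H2AC20 and H2BC21 gave -0.27 and 0.16, neither of them called, over starts 236 bases apart. H2AC8 and H2BC8 gave 0.04 and 0.00, and were counted as opposite because H2BC8 gave -0.0007 ± 0.063 (SE). The difference within a pair was not tested.

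**Figure D5:**
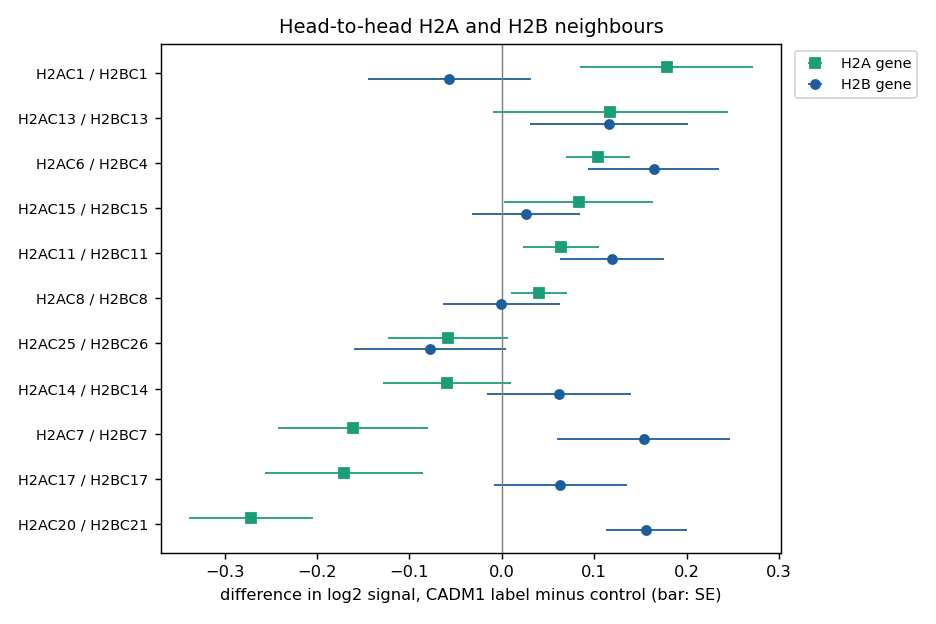
Difference in log2 signal, arrays labelled overexpression minus arrays labelled control, for the 11 head-to-head pairs, with green squares for the H2A gene, blue circles for the H2B gene and bars of 1 SE. The pair of H2AC20 and H2BC21, at the bottom, lies on opposite sides of 0 at -0.27 and 0.16, and no pair has both genes called.

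Related genes were given by lists for comparison. Of 10 replication-independent histone variants, which come mostly from polyadenylated mRNA, 1 fell, CENPA, the centromeric H3, by 0.12 (limma, adjusted p = 0.0217), and the median was 0.01. None of the 16 measured genes of histone transcription, 3′ end processing and decay was called or had an unadjusted limma p under 0.05, and 11 were negative. The lowest p belonged to SRRT, a partner of the cap-binding complex, at 0.05, and ERI1, a nuclease that trims histone mRNA, at -0.05. Named after their values were seen, the stem-loop binding protein SLBP gave -0.03 ± 0.021 (SE) and NPAT, which activates histone transcription in S phase, -0.02 ± 0.039 (SE). Of 23 histone chaperones and importers HIRA, which deposits the variant H3.3, fell by 0.25 (limma, adjusted p = 0.00144), and 4 were lower and 1 higher at an unadjusted p under 0.05. The lower share was 17.4%, against 11.6% of all genes at or above the median signal, a level reached by 20 of the 23. Of 20 S-phase genes RRM2 and TK1, enzymes of nucleotide supply, fell by 0.18 each (limma, adjusted p = 0.00129 and 0.00159), and 15 were negative, with a median of -0.03. At an unadjusted limma p under 0.05, 7 of the 20 were lower and 0 higher, or 35% lower against 11.6% of all genes at or above the median signal. S-phase genes and the brighter histone members thus had medians of opposite sign, -0.03 and 0.06, and the difference between them was not tested.

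Markers of other cell types were read beside these results. The 3 endothelial markers summed to linear signals of 156 to 162 in the arrays labelled overexpression and 170 to 186 in those labelled control, without overlap, and CDH5 among them fell by 0.27 (limma, adjusted p = 0.0475), while PECAM1 gave 0.08 and VWF 0.02. The 6 epithelial markers summed to 23007 to 23437 against 24237 to 24297, also without overlap, and none was called. KRT7, KRT8 and KRT18 carry that sum, at -0.06, -0.04 and -0.07, and CDH1 gave 0.18 without overlap (limma, adjusted p = 0.346). The sums of the blood (3 markers, 62.3 to 69.1 against 67.5 to 73.3), fibroblast (4 markers, 205.7 to 207.8 against 197.8 to 210.1) and ovarian markers (5 markers, 1122 to 1203 against 1119 to 1161) overlapped. ARID1A carries the ovarian sum, at a mean log2 signal of 9.89, where the others listed with it ran from 4.24 for WT1 to 6.88 for NAPSA. No marker was listed at 0, where the lowest value on the arrays was 2.15. The part of these markers, of the S-phase genes and of the CADM1 probe sets in the histone differences was not tested.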

How the data were processed

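The authors deposited 1 table of log2 values for 49395 probe sets on 6 arrays, made with MAS5 per the submitters' processing notes. The log2 scale was taken from the values, and their tight low end looks more like an RMA-type summary, so the summary method and the size of fold changes are unsettled. No genome build of the annotation was given. Scanner files and detection calls were not used here, and 3 arrays per group limit the precision.

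Of the probe sets, 44988 named 1 gene, 1832 several, 2473 none and 102 were controls. Among the probe sets naming a gene alone the one of highest mean was used, an _x_at set only where there was no other. The 67 members had 113 such probe sets. Of the members 35 had 1 probe set, 5 were read by an _x_at set and 17 by an _s_at set, types that can match related transcripts, so close copies may share signal.

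The 18132 genes were fitted together with limma 3.58.1 in R 4.3.3 (lmFit on group alone, then eBayes allowing a mean-variance trend). Tests were two-sided, p-values were adjusted by Benjamini-Hochberg over all of them, and an adjusted p under 0.05 was a call. The scripts were tested on simulated data. Named genes were the called members and, per class, the 2 with the lowest p, the highest signal and the highest and lowest difference, and in each related list the called genes or the 2 of lowest p. Others with values were chosen after these were seen. The members and lists were chosen with earlier results of these data known. Promoters and lengths came from RefSeq (GRCh38.p14). Alternatives were 2 normalizations, an offset of 32 on the linear scale, a level filter, 3 rules for probe sets, 2 variance models, the replicate block and leaving out each array. Figures used matplotlib 3.10.9 in Python 3.11.15.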

Additional observations from a re-analysis of the deposited data

Results flagged for a closer look

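Outside the comparison of single genes, 9 probe sets named a histone gene together with another gene. A probe set of the _s_at type, which names both H2AC18 and H2AC19, a near-identical H2A pair of the HIST2 cluster, drew attention because it differed between the labelled groups in data that the report did not use. It read 11.14, 11.09 and 11.11 on the arrays labelled overexpression and 10.87, 10.94 and 10.95 on those labelled control. The groups did not overlap, and the log2 difference was 0.20 ± 0.026 (SE; limma, adjusted p = 0.00134 over all probe sets). The other probe set of the same pair, of the _x_at type, was brighter, at a mean of 11.54 against 11.02. It gave 0.10 ± 0.031 (SE), also without overlap, and was not called (limma, adjusted p = 0.170 over all probe sets). Which of the 2 genes gave the signal could not be told apart. No other of the 9 was called. Those naming other genes had differences from -0.05 for the set naming H4C12 and H4C11 to 0.09 for 1 naming H3C14 and H3C15. The call among these 9 stands beside 728 calls among all 49395 probe sets.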

How the results depend on the processing

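Under 16 alternatives, H1-2 kept its call in 15 (0.16 to 0.18) and H2BC12 in 8 (0.08 to 0.11). H1-2 has a single probe set, so the 3 rules for probe sets left its values unchanged and could not test their dependence on the probe set. The count of members called higher was 1 with median centring, 1 with the mean of all probe sets, 0 without a mean-variance trend, and 1 to 3 when single arrays were left out. It was 3 with quantile normalization, with genes under the median level left out and with the brightest probe set of any type. The count called lower was 1 where genes under the median level were left out and 0 to 1 when single arrays were left out. Over all genes 11 were called without a trend and 116 to 375 with an array left out, against 392. With every probe set on its own, 728 of 49395 probe sets were called, which is a count of probe sets and not of genes. With the replicate block 1 member, H1-2, and 172 genes were called, but deviations of arrays with the same number correlated at 0.13, -0.07 and -0.07, so the numbers were not taken to pair the arrays. The members' median difference stayed positive: 0.0387 with quantile normalization, 0.02455 with the offset of 32 on the linear scale, 0.0568 without the genes under the median level, 0.0345 with the mean of all probe sets, 0.0404 with the brightest probe set of any type, and 0.0309 to 0.05675 with an array left out. H3C4 ran from -0.0082 without the third overexpression array, where its sign reversed, to 0.0629 without the first. Fewer genes or arrays enter the filtered and leave-one-out fits; the cause of the other changes was not tested. Detection calls were not used, and in the 48 dim members the median SE of 0.085 is about as large as the difference seen in H2BC12.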
